A study of Mus musculus with 7 samples.

Results

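The chemokine ligand genes are described here by the histone mark H3K27-Ac in cells grown from mouse skin tumours. They were taken from GENCODE M21 on GRCm38 as the protein-coding genes named Ccl, Cxcl, Xcl or Cx3cl with a number, plus Pf4 and Ppbp. There are 39 of them among 21938 protein-coding genes. Of these, 10 are the Cxcl, Pf4 and Ppbp genes of chromosome 5 and 11 are the Ccl genes of chromosome 11. Ccl19-ps1, Ccl19-ps3 and Cxcl11 are pseudogene models in this annotation and were not counted.

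Chemokines are small secreted proteins that draw cells towards their source through receptors on the cell surface. The CXC ligands Cxcl1, Cxcl2, Cxcl3 and Cxcl5 attract neutrophils through Cxcr2, Cxcl9 and Cxcl10 attract activated T cells through Cxcr3, and the CC ligands attract mainly monocytes, eosinophils and lymphocytes. Many of them are silent in resting cells and are switched on by NF-kB after IL-1, TNF or Toll-like receptor signals, or by interferons, while others such as Cxcl12, Cxcl14 and Ccl27a are made without such a signal in stroma or epidermis. H3K27-Ac marks active promoters and enhancers, so a peak shows that a stretch carried the mark and gives no level of RNA or protein.

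The data are 3 peak lists, of clones 1, 2 and 3, from Cdkn2ab mutant cells of an FVB/129P2 backcross. Each clone was picked from soft agar after culture of a separate Cdkn2ab-/- skin tumour and then kept as an attached culture, so a list describes 1 selected clone. All of them lack the tumour suppressors of that locus, and there is no wild-type or normal skin group beside them. There were 4 H3K27-Ac libraries, 2 of them of clone 3 and pooled by the authors into 1 list, and 3 IgG control libraries, of clones 1 and 3. With 1 list per clone and 1 condition no test between groups was possible, and counts of genes with a promoter peak are read beside the share over all protein-coding genes. Reads at each summit were solved from the deposited fold enrichment and p-value, and the 95% Poisson intervals given cover counting error only.

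The lists hold 29182, 49587 and 29277 peaks for clones 1, 2 and 3, at an estimated 13.3, 13.7 and 35.8 M ChIP reads. The weakest peak listed had 13, 12 and 25 reads, and a missing peak means only that the mark stayed below the caller's threshold at that depth. The median promoter peak held 76, 133 and 71 reads, and strength is therefore given below also as a percentile among the promoter peaks, or all peaks, of the same list. The peak names of clones 1 and 2 say that reads had passed a filter for allele mapping bias, and those of clone 3 do not. At summits of clones 1 and 2 that lay within 20 bp of each other and drew their background from 10 kb, the number of control reads was the same in 68.5% of 1642 pairs, against 1.5% for clones 1 and 3, so the fold values of clones 1 and 2 are not independent. The label of a skin tumour was checked against markers. Of 8 keratinocyte genes, Krt5, Krt17, Trp63, Cdh1, Epcam and Dsg3 had no promoter peak in any clone, and Krt14 and Krt15 had one in 1 clone each. Of 9 mesenchymal genes, Pdgfrb, Prrx1, Twist1 and Twist2 had one in all 3 clones, Col1a1, Col1a2 and Pdgfra in clones 1 and 2, Col3a1 in clone 3 and Dpt in none. Of 6 hair germ genes, Sox9 and Cdh3 had one in all 3 clones, Gli1 in clones 1 and 2, Lhx2 in clone 2, and Lef1 and Shh in none. Of 5 melanocyte genes, Mitf and Pmel had one in all 3 clones, and Tyr, Dct and Mlana in none. None of 5 dermal papilla genes had one. Of 5 endothelial genes only Tek had one, in clone 3, and of 3 muscle genes only Acta2 had one, in clones 1 and 2. Among the leukocyte genes, Ptprc, Itgam, Cd3e and Laptm5 had none, although 1 of 8 leukocyte markers in clone 1 and 3 in clone 2 had a peak.

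Few chemokine promoters carried the mark. A peak within 1 kb of a start was found at 7, 9 and 7 of the 39 genes in clones 1, 2 and 3, a mean of 7.67 ± 1.15 (SD, n = 3 clones). Over all protein-coding genes the share with such a peak was 49.8%, 56.9% and 48.1%. The genes marked in all 3 clones were 6 (Cxcl5, Cxcl1, Ccl25, Cx3cl1, Cxcl16 and Ccl9), where the share of all genes was 46.5%. Counting at least 1 clone added Ccl2 in clones 2 and 3, Ccl27a in clones 1 and 2 and Cxcl2 in clone 2, which makes 9 genes against 57.4% of all genes. The other 30 genes had no promoter peak in any list. Requiring the peak to cover a start base left 3 genes in all 3 clones. Close to the edge of the window were peaks at Cxcl5 in clone 1, one of 29 reads and one of 16, whose nearer edges lay just outside it.

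**Figure D1:**
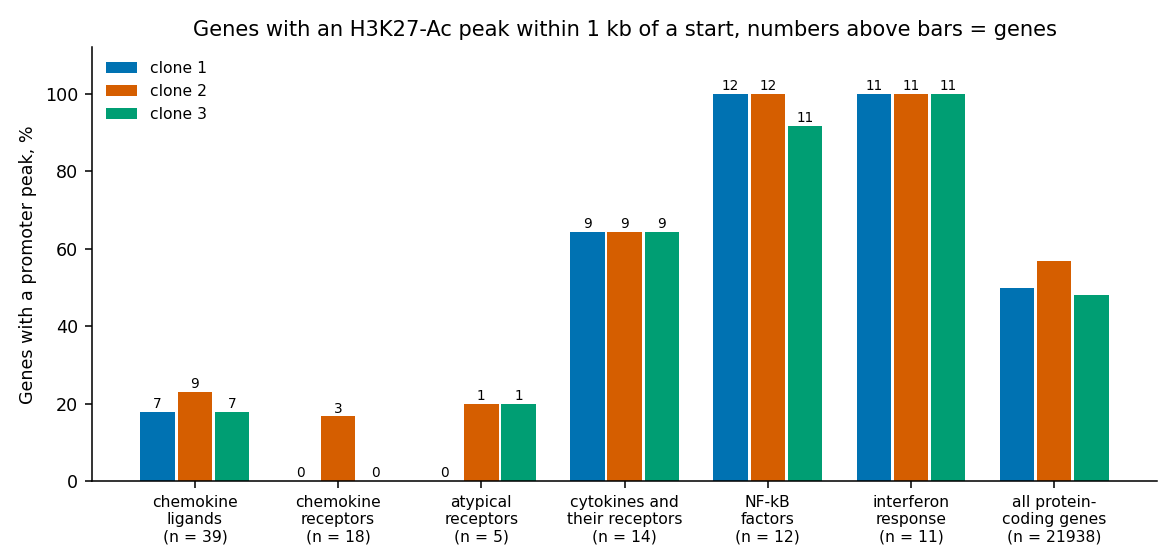
Bars give the percentage of genes with an H3K27-Ac peak within 1 kb of a start, by clone, for the chemokine ligands, 5 lists of related genes and all protein-coding genes, and numbers above the bars count the genes. The ligands and their receptors lie below the bars of all genes in every clone, and the NF-kB and interferon lists reach 11 or more genes of 12 and 11.

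Part of this number lies at promoters shared with neighbouring genes. The Ccl25 promoter is shared with Elavl1, an RNA-binding protein gene read in the opposite direction, and that of Cxcl16 with Zmynd15. Among the 37 ligand genes with no second protein-coding start within 1 kb, 4 were marked at the promoter in every clone, and the share over all genes without such a neighbour was 40.5%. When body peaks and intergenic peaks within 50 kb of either end of the gene were counted too, 20 ligand genes had a peak in all 3 clones, against 55.3% of all genes. The median distance from a ligand gene's start to the nearest peak was 16.4, 15.9 and 16.0 kb in clones 1, 2 and 3, and over all genes it was 1.23, 0 and 2.96 kb.

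**Figure D2:**
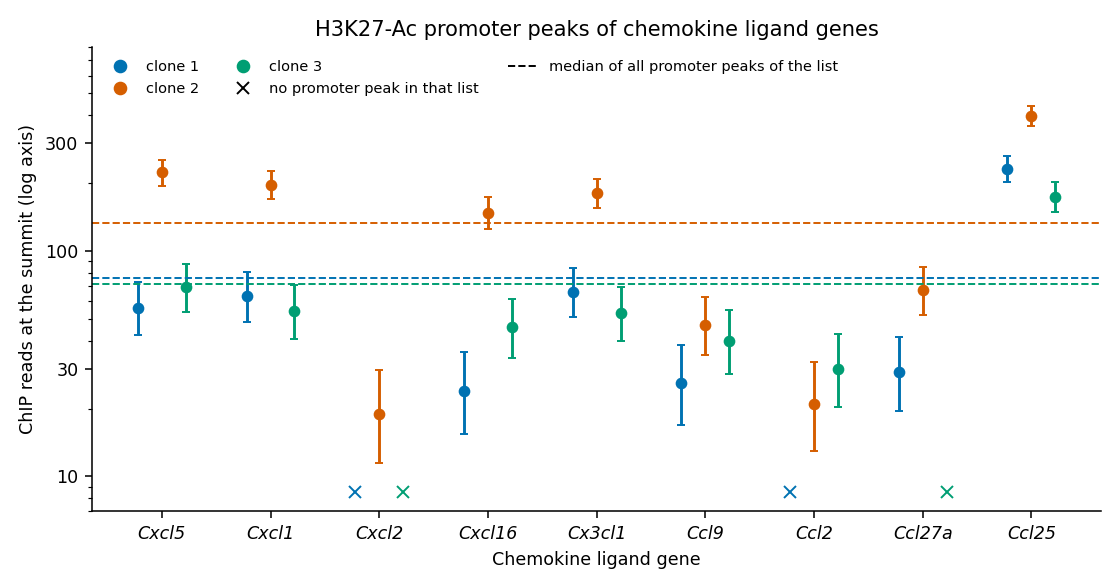
ChIP reads at the summit (log axis) of the strongest promoter peak of the 9 genes that had one, by clone, with 95% Poisson intervals of counting error; crosses at the foot mark lists with no promoter peak, and dashed lines give each list's median promoter peak. Ccl25, at the promoter it shares with Elavl1, lies above all 3 medians, and Cxcl5, Cxcl1, Cxcl16 and Cx3cl1 lie above the median in clone 2 only.

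Among the neutrophil attractants of chromosome 5, Cxcl5 and Cxcl1 were marked in every clone. Cxcl5 (chr5:90759360-90761624, plus strand) carried a peak over its start with 56 reads in clone 1 (42.3 to 72.7), 223 in clone 2 (195 to 254) and 69 in clone 3 (53.7 to 87.3), or 12.4-, 53.4- and 7.43-fold over the local background. The summit lay 163 bp before the start in clone 1 and in the first part of the gene in clones 2 and 3. Clone 2 was the highest by a margin that counting error does not cover, and it also stood higher within its own list, at the 68.3th percentile of promoter peaks against 36.6 and 47.5 in clones 1 and 3. A separate peak further upstream held 29, 65 and 44 reads in clones 1, 2 and 3, and that of clone 1 lay just beyond the 1 kb window.

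Cxcl1 (chr5:90891241-90893115, plus strand), a ligand of Cxcr2 that many stromal and epithelial cells release after IL-1, had 63 reads in clone 1 (48.4 to 80.6), 196 in clone 2 (170 to 225) and 54 in clone 3 (40.6 to 70.5). The summit lay in the UTR of the first exon in clone 1 and in its coding part in clones 2 and 3. Clone 2 again had the most reads, at the 62.9th percentile against 41.5 and 31.4. Cxcl2 (chr5:90903871-90905938), its close paralogue, had a weak promoter peak in clone 2 with 19 reads, at the 5.49th percentile, and none in the other lists. Cxcl3, Cxcl15 and the platelet chemokine genes Pf4 and Ppbp, which lie between Cxcl5 and Cxcl1, had no promoter or body peak in any clone.

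The promoters of Cxcl1, Cxcl2 and Cxcl3 share an NF-kB site, shown here because these neighbours differed in the mark. Windows from 250 bases before to 50 after a start were taken from RefSeq on GRCm38.p6, which gave 31 windows for 28 of the ligand genes. The other 11 were not searched, and these were Ccl2, Ccl4, Ccl5, Ccl7, Ccl11, Ccl21b, Ccl24, Ccl26, Cxcl5, Cxcl16 and Cxcl17. The site was searched on both strands by its usual consensus, and overlapping matches on opposite strands were joined. Capitals mark the site, which lies 71 to 61 bases before the RefSeq start of Cxcl1, 97 to 87 before that of Cxcl2 and 73 to 63 before that of Cxcl3, all on the plus strand at chr5:90891165-90891194, chr5:90903793-90903822 and chr5:90786019-90786048.
Cxcl1: ctgtactccGGGAATTTCCCtggcccggag
Cxcl2: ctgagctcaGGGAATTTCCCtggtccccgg
Cxcl3: agctgcgggGGGAATTTCCCcagcccgggc

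The same letters thus stood in a promoter with a peak in 3 clones, in 1 clone and in none. The site of Cxcl1 lay inside its peak in every clone and that of Cxcl2 inside its peak of clone 2. An NF-kB site was present in 8 of the 31 windows (25.8%) and in 8.46% of all 32851 windows. The 8 genes were Cxcl1, Cxcl2, Cxcl3, Cxcl10, Ccl1, Ccl9, Ccl20 and Ccl27a, and Cxcl3, Cxcl10, Ccl1 and Ccl20 among them had no promoter peak in any clone. Other matches in the 31 windows were a TATA box (TATAAA) in 10, against 13.6% of all windows, an AP-1 site (TGACTCA or TGAGTCA) in 5, against 5.20%, an interferon stimulated response element (GAAANNGAAA) in 3, against 3.44%, and a STAT site (TTCNNNGAA) in 2, against 8.30%. A match says only that the letters are there.

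**Figure D3:**
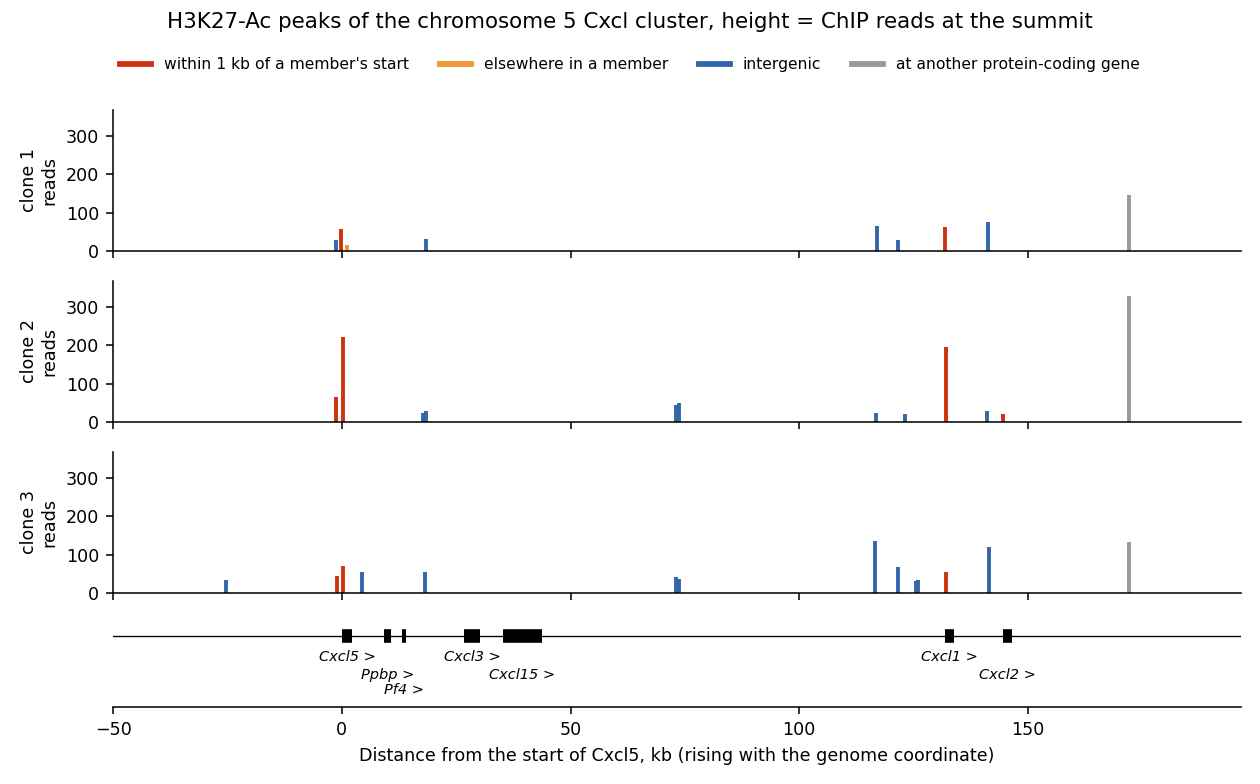
Each line is an H3K27-Ac peak of the Cxcl5 to Cxcl2 run, placed by its distance from the start of Cxcl5 in kb, with its height giving ChIP reads at the summit in clones 1, 2 and 3 and its colour the kind of site; genes are drawn below with arrowheads for their direction. In clone 2 the promoter lines of Cxcl5 and Cxcl1 (223 and 196 reads) stand above the intergenic ones, and in clone 3 the intergenic lines beside Cxcl1 (136 and 120 reads) stand above the promoters.

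By reads, intergenic stretches around Cxcl1 ordered the clones otherwise than its promoter did. A stretch at chr5:90875227-90877279, 13.96 kb before the start of Cxcl1, had 66 reads in clone 1 (51.0 to 84.0), 24 in clone 2 (15.4 to 35.7) and 136 in clone 3 (114 to 161). Among all peaks of each list these stood at percentiles 70.4, 26.9 and 94.5, and among peaks away from promoters at 90.8, 33.2 and 98.2. A second one at chr5:90899935-90901473, between Cxcl1 and Cxcl2 and 2.40 kb before Cxcl2, had 76, 29 and 120 reads, or percentiles 74.6, 40.4 and 91.4. Among peaks away from promoters its percentiles were 93.6, 50.1 and 96.9. Another, at chr5:90880007-90882558, had 28, 21 and 68 reads, or percentiles 33.6, 16.9 and 66.4, but the peak of clone 2 lay further along it than the summits of clones 1 and 3, and the intervals of clones 1 and 2 overlap (18.6 to 40.5 and 13.0 to 32.1). The first pair of stretches was weakest in clone 2, where the Cxcl1 promoter was strongest, and strongest in clone 3. That promoter had its fewest reads in clone 3, but with an interval that overlaps that of clone 1. The lists as a whole also differ by kind of peak. Their median promoter peak held 76, 133 and 71 reads, and their median peak away from promoters 28, 28 and 46. With 1 list per clone the order of the clones at these stretches has no replicate check. Neighbouring peaks were chained into domains across gaps of up to 12.5 kb, and the domain with Cxcl1 held 5179, 2931 and 7684 bases under peaks. By those bases it ranked 802 of 14560 domains in clone 1, 3025 of 18280 in clone 2, where it also takes in Cxcl2, and 155 of 16371 in clone 3.

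The first of these stretches holds an AP-1 and an NF-kB site close to each other, and the one beside Cxcl2 holds an AP-1 site. They are printed from GRCm38.p6 on the plus strand at chr5:90876197-90876226, chr5:90876259-90876288 and chr5:90900871-90900900, with the site in capitals, since these stretches were the strongest intergenic peaks of the run in clones 1 and 3.
Upstream of Cxcl1, AP-1: tgcctagcccgTGAGTCAcagattcctgaa
Upstream of Cxcl1, NF-kB: gtccacacatGGGATTTCCCaaggatttaa
Between Cxcl1 and Cxcl2, AP-1: ctcctaactgcTGAGTCAtctctctatccc

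Within 1001 bases centred on the summit, 7 of the 12 intergenic stretches near ligand genes that all clones shared held an AP-1 site by the summits of clones 1 and 3, and 5 did by those of clone 2. The share over all peaks away from promoters was 41.9%, 30.2% and 45.4% in clones 1, 2 and 3. For an NF-kB site the numbers were 2, 3 and 2 of 12, against 19.8%, 22.5% and 17.6%.

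Elsewhere in this run, a stretch at chr5:90776914-90778362, 4.02 kb from the start of Pf4, had 31, 29 and 53 reads. It was the strongest intergenic peak within 50 kb of Pf4 and Ppbp in clones 1 and 2, and clone 3 had one of 54 reads beside Cxcl5. A pair of stretches 37.7 and 38.3 kb beyond the start of Cxcl15 was found in clones 2 and 3 only, with 43 and 48 reads in clone 2 and 42 and 36 in clone 3. Counting also the run of Cxcl9 and Cxcl10, all peaks within 50 kb of the chromosome 5 Cxcl runs covered 14018, 12186 and 18429 bases. That was 3.75%, 3.26% and 4.93% of the 374 kb around these runs. Peaks at the other genes Mthfd2l, Naaa, Sdad1 and Art3 are part of these sums. In clones 2 and 3 every peak of the Cxcl9 and Cxcl10 run lay at such a gene. The lists cover 0.989%, 1.47% and 0.967% of the genome.

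The interferon-induced genes Cxcl9 and Cxcl10 had no promoter or body peak. Around them most peaks belonged to other genes, and the nearest, 3.76 kb from the start of Cxcl9 in Art3, had 75 reads in clone 2 and 43 in clone 3. Cxcl10 had no intergenic peak within 50 kb in any clone. This follows in part from the definition, since stretches on both sides of Cxcl10 lay at Art3 and peaks at other genes are not intergenic. The RefSeq promoter window of Cxcl10 holds NF-kB sites at 159 to 150 and at 104 to 94 bases before the start, an AP-1 site and an interferon stimulated response element. Cxcl13, which organises B cell follicles, had no peak within 50 kb in any clone.

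Cx3cl1 (chr8:94772009-94782427, plus strand), whose product is anchored in the membrane and binds Cx3cr1, had a promoter peak in every clone, with its summit in the first part of the gene, in an intron. It held 66 reads in clone 1 (51.0 to 84.0), 180 in clone 2 (155 to 208) and 53 in clone 3 (39.7 to 69.3), at percentiles 43.5, 59.3 and 30.1 of promoter peaks. Clone 2 had 5 more peaks in the gene body, of 19 to 39 reads, which had no counterpart in the other lists. A pair of intergenic stretches beyond the 3′ end was held by all clones. The one at chr8:94787010-94789865, 14.8 kb from the start, had 144, 197 and 77 reads and stood at the 91.1th, 87.0th and 73.2th percentiles of all peaks. The one at chr8:94784103-94786153, 11.9 kb from the start, had 47, 69 and 67 reads. Here the promoter and the strongest intergenic stretch were both highest in clone 2 and lowest in clone 3 by reads, unlike around Cxcl1. By percentile that stretch stood highest in clone 1, also among peaks away from promoters, at 99.1, 98.5 and 86.2.

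**Figure D4:**
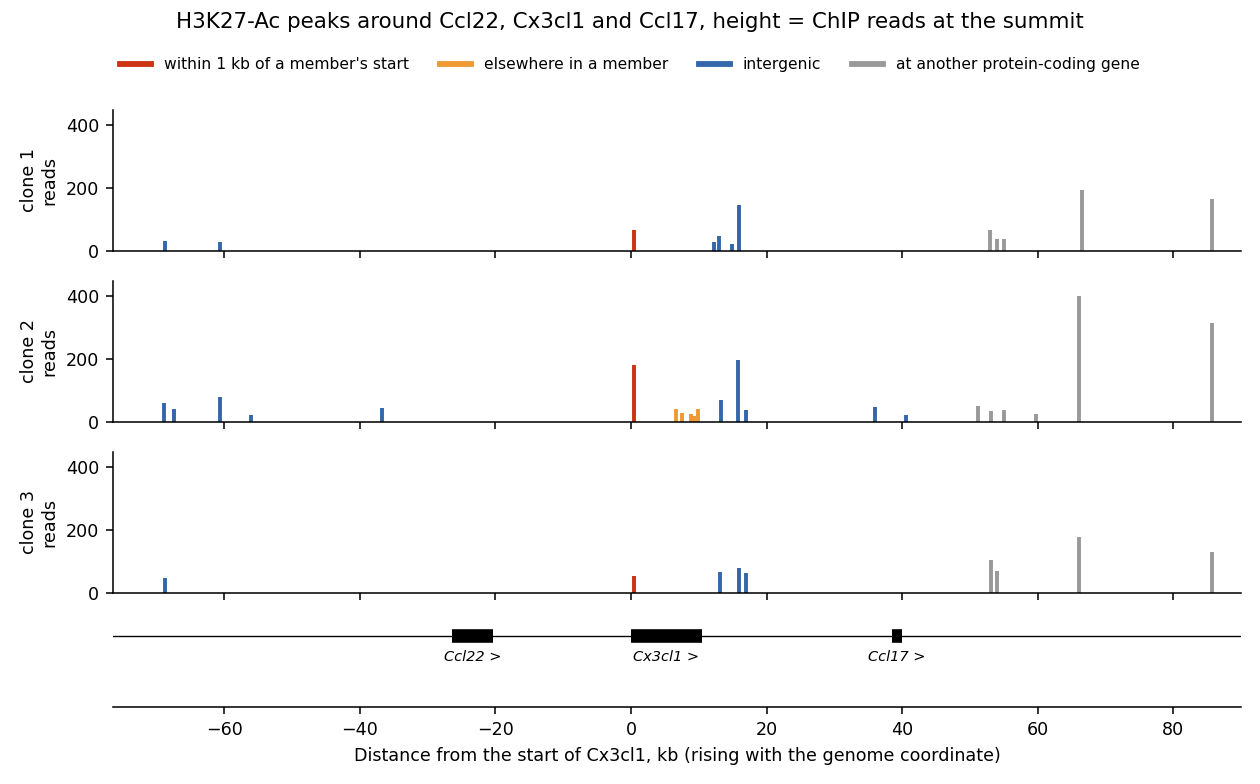
H3K27-Ac peaks around Ccl22, Cx3cl1 and Ccl17, placed by distance from the start of Cx3cl1 in kb, with heights giving ChIP reads at the summit in each clone and colours the kind of site. A promoter line at 0 and a group of intergenic lines just beyond the gene recur in all 3 clones, and the body peaks of Cx3cl1 appear in clone 2 only.

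Ccl22 and Ccl17, which flank Cx3cl1 and attract cells with Ccr4, had no promoter or body peak. The stretch beyond Cx3cl1 was also the strongest intergenic peak within 50 kb of each of them. Close to Ccl17 only clone 2 had peaks, of 47 reads 2.15 kb and of 21 reads 2.09 kb from the start, one on each side. A weaker stretch 42.0 kb from Ccl22 had 32, 60 and 47 reads.

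On chromosome 8 the strongest promoter peak of all ligand genes was that of Ccl25 (chr8:4325210-4360020, plus strand), a thymic and intestinal chemokine. It had 232, 397 and 174 reads, at percentiles 97.3, 96.7 and 96.7. Its summit lay 302 to 359 bp before the start of Ccl25, in the shared promoter, so the mark cannot be told apart from that of Elavl1. GENCODE and RefSeq list this start and also starts further into the gene, where no clone had a promoter peak. Inside Ccl25 only clone 2 had a peak, of 18 reads.

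Cxcl16 (chr11:70453983-70459984, minus strand), a membrane-bound ligand of Cxcr6, lies apart from the Ccl genes of chromosome 11. Its promoter peak had 24 reads in clone 1 (15.4 to 35.7), 148 in clone 2 (125 to 174) and 46 in clone 3 (33.7 to 61.4), with the summit in the UTR. Among the 6 genes marked in every clone it had the widest span, at percentiles 8.61, 52.9 and 20.7. The start of Zmynd15 lies within 1 kb, and to which gene the mark belongs was not tested.

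The Ccl genes of chromosome 11 lie in 2 runs. All peaks in the 609 kb around them, also those at other genes, covered 6974, 7087 and 11431 bases. That was 1.15%, 1.16% and 1.88% of these 609 kb, beside 0.989%, 1.47% and 0.967% of the genome. The run from Ccl5 to Ccl4 was covered to 2.51%, 2.32% and 2.41% and that from Ccl2 to Ccl1 to 0.262%, 0.418% and 1.53%. In the first run, from Ccl2 to Ccl1, the only gene with a promoter peak was Ccl2 (chr11:82035571-82037453, plus strand), the main attractant of monocytes. Clone 1 had none there, clone 2 had 21 reads (13.0 to 32.1) and clone 3 had 30 (20.2 to 42.8). The sites differed, since the summit of clone 2 lay 47 bp after the start in the UTR and that of clone 3 lay 626 bp before it. Both were near the foot of their lists, at percentiles 8.89 and 0.988 of promoter peaks. A stretch 1.93 kb before the start had 17, 24 and 54 reads and was held by all clones. Gm17268, a gene model on the other strand, spans Ccl2 and these stretches.

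Further along that run, an intergenic stretch 2.69 kb before Ccl7, another monocyte attractant, had 42 reads in clone 1 and 53 in clone 3 and was not listed in clone 2. Upstream of Ccl2, stretches at 27.8 and 23.0 kb had 33 and 35 reads in clone 2 and 45 and 57 in clone 3. Ccl7 and Ccl11, the eosinophil attractant eotaxin, had an intergenic peak within 50 kb in every clone, with at most 42, 35 and 57 reads. Ccl12, Ccl8 and Ccl1 had 1 nearby stretch, of 46 reads in clone 3 alone.

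**Figure D5:**
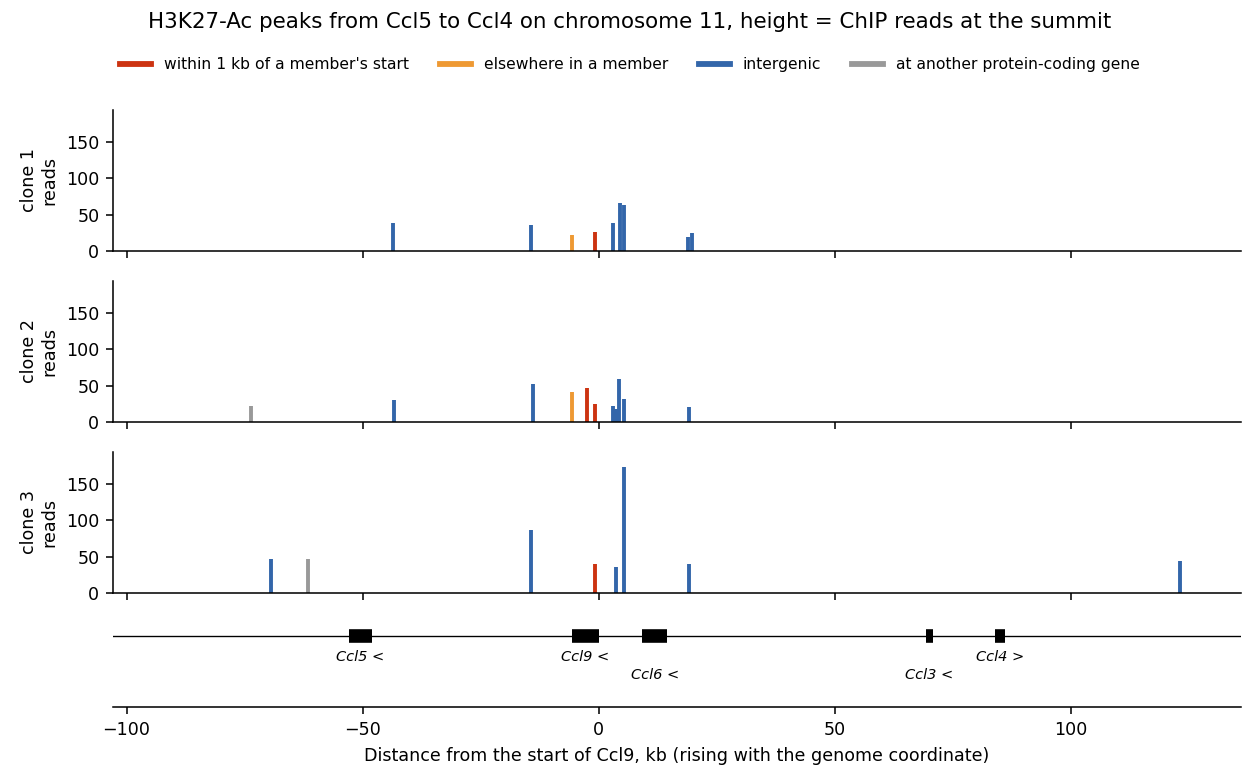
H3K27-Ac peaks of the run from Ccl5 to Ccl4 on chromosome 11, placed by distance from the start of Ccl9 in kb, with heights giving ChIP reads at the summit in each clone and colours the kind of site. Lines gather at Ccl9 and just upstream of it in all 3 clones, with 174 reads at the highest in clone 3, and none lies at Ccl3 or Ccl4.

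In the second run, from Ccl5 to Ccl4, the mark gathered at Ccl9 (chr11:83572919-83578636, minus strand), a ligand of Ccr1. Its promoter peak had 26, 24 and 40 reads in clones 1, 2 and 3, with the summit in an intron between its 2 annotated starts, and clone 2 had another of 47 reads beyond the inner start. The peak between the starts was weak, at percentiles 28.8, 26.9 and 24.1 of all peaks. In clone 3 it had 3.33-fold enrichment and a −log10 q of 2.62. At the 3′ end of the gene clones 1 and 2 had a peak of 22 and 41 reads. The stretch just upstream at chr11:83582400-83584660, 3.76 kb from the start, was stronger, with 66 reads in clone 1 (51.0 to 84.0), 59 in clone 2 (44.9 to 76.1) and 174 in clone 3 (149 to 202), or percentiles 70.4, 67.9 and 98.3 of all peaks. Clone 3 was the highest here, as it was in the intergenic stretches around Cxcl1. Its summit, at 83583951, lay further from Ccl9 than those of clones 1 and 2, at 83583102 and 83582975. Clones 1 and 2 each had 2 peaks in this stretch and clone 3 had 1. A stretch past the 3′ end of the gene, 12.3 kb from the inner start, had 36, 52 and 87 reads.

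The RefSeq promoter of Ccl9 holds an NF-kB site on the plus strand of the chromosome, 35 to 26 bases before its start, and this site lay outside the peaks of all 3 clones. It is shown, in the direction of the gene at chr11:83578652-83578681 on the minus strand, beside that of Ccl20 at chr1:83116676-83116705 on the plus strand, a promoter with no peak.
Ccl9: tttgaactttGGAAAGCCCCaagtcacctt
Ccl20: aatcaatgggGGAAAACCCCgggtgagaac

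Ccl6, the neighbour of Ccl9, shares its upstream stretches and had no promoter peak, with a stretch 4.32 kb from its own start of 19, 20 and 39 reads. Ccl5, which attracts T cells, had intergenic peaks of at most 38, 52 and 87 reads within 50 kb and one 4.49 kb from its start in clones 1 and 2, of 38 and 30 reads. Ccl3 and Ccl4, made mainly by leukocytes, had no promoter or body peak. Ccl3 had at most 25, 20 and 39 reads at an intergenic peak, which lay within 50 kb of the gene but over 50 kb from its start, and Ccl4 had 44 reads in clone 3 alone.

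Ccl27a (chr4:41769467-41774247, minus strand), which draws T cells to the epidermis, had a peak over its outermost starts with 29 reads in clone 1 (19.4 to 41.6) and 67 in clone 2 (51.9 to 85.1), and none in clone 3. Ccl28, a mucosal chemokine, had a body peak in an intron in clone 2 only, with 56 reads and 5.00-fold enrichment. Cxcl12, the stromal ligand of Cxcr4, and Cxcl14, which is made in normal skin, had no peak within 50 kb in any clone, nor had Ccl19, Ccl21a, Ccl21b and Ccl27b. Ccl21a and Ccl21b, and Ccl27a and Ccl27b, are near-identical copies whose reads are hard to assign, so their values are uncertain.

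Of the remaining genes, Ccl20 (chr1:83116766-83119167), which attracts cells with Ccr6, had no peak nearby in clones 1 and 2 and intergenic peaks of 41, 43 and 83 reads in clone 3. The strongest of these lay 3.26 kb after the start, just beyond the gene. Xcl1 had 1 intergenic peak, of 48 reads in clone 2. Cxcl17 had a stretch 34.9 kb away with 33, 56 and 60 reads in clones 1, 2 and 3. Ccl24 had intergenic peaks near the 50 kb limit in clones 2 and 3, with up to 106 and 30 reads, and Ccl26 had none.

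Merging the lists gave 120 stretches within 50 kb of the ligand genes. All clones shared 39 of them, 18 were in 2 clones and 63 in a single clone. By position, 47 were intergenic and 12 of these shared by all clones, 19 lay at a ligand gene with 6 shared, and 54 lay at other protein-coding genes with 21 shared. No such split was counted over all peaks of the lists, so none of these numbers is read as particular to ligand genes. The list of clone 2 is also the longest, with 49587 peaks against 29182 and 29277 in clones 1 and 3. Of the 30 genes with no promoter peak, 12 had an intergenic peak within 50 kb in all 3 clones, 1 in 2 clones, 8 in 1 clone and 9 in none. The same share among all genes without a promoter peak was not counted. With promoter and body peaks included, 20 of the 39 ligand genes had a peak in all 3 clones, against 55.3% of all genes.

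Other genes of the pathway are read against the shares of all genes with a promoter peak, 49.8%, 56.9% and 48.1% in clones 1, 2 and 3. Of the 18 chemokine receptor genes none had a promoter peak in clones 1 and 3, and 3 had one in clone 2, which were Ccr10 with 130 reads and Cxcr3 and Cxcr4 with 25 each. Cxcr2, the receptor of Cxcl1 and Cxcl5, Cx3cr1 and Cxcr6 had none. Of 5 atypical receptors, Ccrl2 had a peak in clones 2 and 3, with 36 and 43 reads. In the same clones 12, 12 and 11 of 12 genes of NF-kB factors, their inhibitors and the kinase Ikbkb had a promoter peak, with medians of 134, 289.5 and 110 reads. The exception was Nfkbie in clone 3. Among them Rela, which binds NF-kB sites, had 219, 368 and 155 reads, and the inhibitor Nfkbia had 167, 279 and 66. All 11 genes of the interferon list, which holds response factors and interferon receptors, had one in every clone, with medians of 103, 224 and 65 reads. Irf1 had 107, 218 and 50 reads.

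Of 14 cytokines and receptors that act upstream of chemokine genes, 9 had a promoter peak in every clone, where 46.5% of all genes had one. These were Il6, Lif, Csf1, Il1r1, Tnfrsf1a, Tnfrsf1b, Tlr2, Tlr3 and Tlr4, so the receptors of IL-1 and TNF were among them. Il1a, Il1b, Tnf, Csf2 and Csf3 had none in any clone. Il6 had 61, 17 and 62 reads and was weakest in clone 2, at the 2.58th percentile, where Cxcl1 and Cxcl5 were strongest. Lif had 91, 156 and 68 reads.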

How the data were processed

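H3K27-Ac ChIP-seq peak lists of 3 clones were analysed. The authors aligned the single-end reads against GRCm38, using Bowtie2, and peaks were then called clone by clone. The submitters' processing notes name MACS2 2.1.1. The deposited columns are the fold enrichment at the summit (a ratio of pileup to local background), the −log10 of p and of q, and a score. The lowest deposited −log10 q was 1.30, 1.33 and 1.35 in clones 1, 2 and 3.

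From fold and p, whole reads within 0.02 read and the background were solved for 100% of peaks, by a method tested on simulated data. Depth was estimated from the background floor, with a genome of 1.87 Gb. Peaks off chromosomes 1 to 19, X and Y (5, 21 and 3) were left out. Coordinates count from 1. A promoter peak lay within 1 kb of a GENCODE M21 start, a body peak elsewhere in the gene, and an intergenic peak outside all protein-coding genes and their promoters, within 50 kb of either end of the gene. Ligand genes over 500 kb apart began a new run. Merging used an overlap of 1 bp. Genes with a promoter peak were named, then those with a body peak or with intergenic peaks in all clones; stretches of fewer clones were picked out with their values in view. The members and gene lists were chosen with earlier results of these data known. Alternatives were a stricter q, equal numbers of peaks, other windows and distances, and leaving out each clone. The work used matplotlib 3.10.9, scipy 1.17.1, pandas 2.3.3 and numpy 2.4.6 in Python 3.11.15.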

Additional observations from a re-analysis of the deposited data

How the results depend on the processing

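Of 63 alternative settings of the 8 counts and sums, 58 stayed within 1.5 times the reported count or within the spread between clones. Where a promoter peak had to cover the start base, 3 genes in place of 6 had one in all clones and 4 in place of 7 had one in clone 3. Within 100 kb in place of 50 kb, the mean bases under peaks were 22344.7 for the Cxcl runs of chromosome 5 (14877.7 within 50 kb) and 16743.7 for the Ccl runs of chromosome 11 (8497.33 within 50 kb), and 59 stretches in place of 39 were shared by all clones; a wider window holds more peaks by construction. Leaving out each clone in turn gave 6 to 7 genes with a promoter peak in all remaining clones, 20 to 22 with any peak nearby, 13102 to 16223.5 bases for the Cxcl runs, 7030.5 to 9259 for the Ccl runs and 40 to 48 shared stretches. Only peaks with a −log10 q of at least 5 left 4 genes with a promoter peak in all clones. Cxcl16 fell out in clone 1 and Ccl9 in clone 3. No paired analysis was possible because there is 1 condition, with 1 list per clone. Depth limits the absence of peaks, since the weakest peak of clone 3 rests on more reads than those of clones 1 and 2.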
